A study of Mus musculus with 30 samples.

Results

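The 8 genes described here encode proteins of synaptic vesicle release and of the synapse that receives it: Stx1a, Snap25, Vamp2, Syp, Syt1, Syn1, Rab3a and Dlg4. They were chosen by name, and each was read over its mm10 RefSeq coordinates with 1 kb added on each side, called its window below. They are 8 of the 21887 protein-coding genes on chromosomes 1 to 19, X and Y. Chromatin immunoprecipitation and sequencing had been carried out on NOS1+ N1E115 cells, a mouse neuroblastoma line, after 3 days at 4% O2 or at 20% O2, which the labels call hypoxia and normoxia. All cells carried the NOS1+ designation at both O2 levels. Each of 6 antibodies gave 2 libraries at 4% O2 and 2 at 20% O2, and the 6 inputs were not analysed here. The antibodies recognised RNA polymerase II (POLR2), polymerase carrying phosphate on serine 5 (POLR2S5) or on serine 2 (POLR2S2) of its C-terminal repeats, acetylated lysine 9 of histone H3 (H3K9ac), the insulator protein CTCF and the cohesin subunit RAD21. The question was how binding at these genes compared between 4% O2 and 20% O2 for each antibody and each of the 2 sequencing rounds. The data come from 1 cell line, and the labels do not say whether replicate libraries stem from separate cultures, so p-values cover library-to-library spread alone, which may be technical.

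Transmitter release requires a synaptic vesicle to fuse with the presynaptic membrane. Vesicle-borne synaptobrevin 2 (Vamp2) zippers with syntaxin 1A (Stx1a) and SNAP-25 (Snap25) of the plasma membrane into the SNARE complex that drives fusion, and the calcium sensor synaptotagmin 1 (Syt1) couples it to calcium entry. Synapsin I (Syn1) tethers vesicles in the reserve pool, the small GTPase Rab3a acts in docking, synaptophysin (Syp) is an abundant vesicle membrane protein, and PSD-95 (Dlg4) is the scaffold of the excitatory postsynaptic density. In the chromatin assays, serine 5 phosphorylation marks polymerase near promoters and early in transcription, serine 2 phosphorylation marks elongating polymerase, and H3K9ac marks active promoters.

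RefSeq promoter sequences of build GRCm38.p6, the assembly that mm10 names, were matched for 6 of the 8 genes. The 250 bases upstream of the outermost annotated start are shown for Dlg4 and Syn1. Dlg4 had the highest H3K9ac score of the 6 in both round 2 libraries. Those scores lay 13.1 kb (4% O2) and 11.06 kb (20% O2) inside the gene, not at the sequence shown. Syn1 had polymerase regions with both the largest and the smallest fitted log2 ratio of the 6. Dlg4 is read from the plus strand at chr11:70016953-70017202 and Syn1 from the minus strand at chrX:20920919-20921168, both 5′ to 3′, with searched motifs in capitals.
Dlg4: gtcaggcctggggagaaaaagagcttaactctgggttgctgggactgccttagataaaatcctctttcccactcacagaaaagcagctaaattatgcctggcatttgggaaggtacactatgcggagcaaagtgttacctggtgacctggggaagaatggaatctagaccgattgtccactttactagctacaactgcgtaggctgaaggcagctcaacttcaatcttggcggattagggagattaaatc
Syn1: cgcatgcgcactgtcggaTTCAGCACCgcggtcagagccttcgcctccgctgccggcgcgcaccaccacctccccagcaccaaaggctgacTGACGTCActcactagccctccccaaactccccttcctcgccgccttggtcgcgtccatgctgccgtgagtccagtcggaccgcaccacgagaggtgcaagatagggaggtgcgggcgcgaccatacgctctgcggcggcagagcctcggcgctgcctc
In the Syn1 sequence the capitals mark TTCAGCACC, the left part of the RE1 element that the repressor REST is known to bind, at -232 to -224, and the cAMP response element TGACGTCA at -159 to -152 from the start. TTCAGCACC was present in 0.301% of 32851 RefSeq upstream sequences of this length on either strand, and TGACGTCA in 1.55%. Of the 6 genes, Syn1 was the 1 gene with each motif. The GC box GGGCGG lay in 4 of the 6, Stx1a, Syp, Syt1 and Rab3a, and in 32.7% of all sequences. The hypoxia response core was searched as ACGTG alone, which lay in 0 of the 6 and in 16.6% of all sequences. The form GCGTG was not searched, and the Stx1a sequence holds it. The motifs overlapped each other nowhere in these sequences, and Dlg4 held no searched motif. The Syn1 sequence had a GC content of 68.0% and that of Dlg4 47.2%, beside a median of 52.4% over all sequences.

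Polymerase lists are SICER islands with a deposited read count each, and the other lists are MACS2 peaks with a score read as -log10 of a q-value; these scores are the authors' own. Reads in islands summed to between 2057835 and 16597869 per polymerase library, and 20% O2 round 1 was the smallest in all 3 forms, with 2057835, 5926664 and 4874802 reads for POLR2, POLR2S5 and POLR2S2. A gene with no island in that library had no called enrichment there, which is not a count of 0 reads. Among genes with an island in the other 3 libraries, 24.9%, 9.69% and 15.1% had none in 20% O2 round 1 alone. The labelled cell type was checked with H3K9ac peaks at marker genes: 12 and 13 of 13 neuroblast markers had a peak at 4% O2 and 12 and 12 at 20% O2. The astrocyte list had 2 and 2 of 8 against 3 and 3, the oligodendrocyte and Schwann list 4 and 4 of 10 against 5 and 4, and the fibroblast list 3 and 3 of 8 at both levels. The macrophage and microglia list had 1 and 1 of 8 and the endothelial list 4 and 4 of 7 at both levels, with Aqp4, Mog, Dcn, Ptprc, Csf1r and Cdh5 among the markers with no peak in any library. In bulk chromatin, fewer cells with polymerase on a gene and less polymerase per cell cannot be told apart.

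Below, each gene's reads are those of its islands inside the window, and an island reaching past the window gave reads in proportion to its overlap. Scaled reads are these reads as CPM, scaled to the island reads of their library, after TMM normalization of the libraries of a form. Values come in the order round 1, round 2. Total polymerase lay higher at 4% O2 than in either 20% O2 library at Snap25, Vamp2, Syt1 and Dlg4, lower at Syp, and overlapped at Stx1a, Syn1 and Rab3a. A window without an island was counted as lowest here, as at Snap25 and Vamp2 in 20% O2 round 1. Over all genes with a POLR2 island, 16.3% lay higher and 11.4% lower in this way. In the round 2 libraries the POLR2 log2 ratio, 4% over 20% O2, was 1.85 at Snap25, 0.61 at Syt1, 0.61 at Dlg4 and 0.42 at Vamp2. Neither Syt1 nor Dlg4 passed the test across all regions, which called 0.0% of them, and Snap25 and Vamp2, with no POLR2 island in 20% O2 round 1, did not enter it for POLR2. With no filter on the number of libraries their POLR2 ratios were 2.08 ± 2.42 and 1.34 ± 2.50 (SE), with adjusted p = 1.0 by edgeR. H3K9ac peaks were present at all 8 genes in all 4 libraries, beside 58.9% of all protein-coding genes, and CTCF peaks at 7, beside 51.6%.

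**Figure D1:**
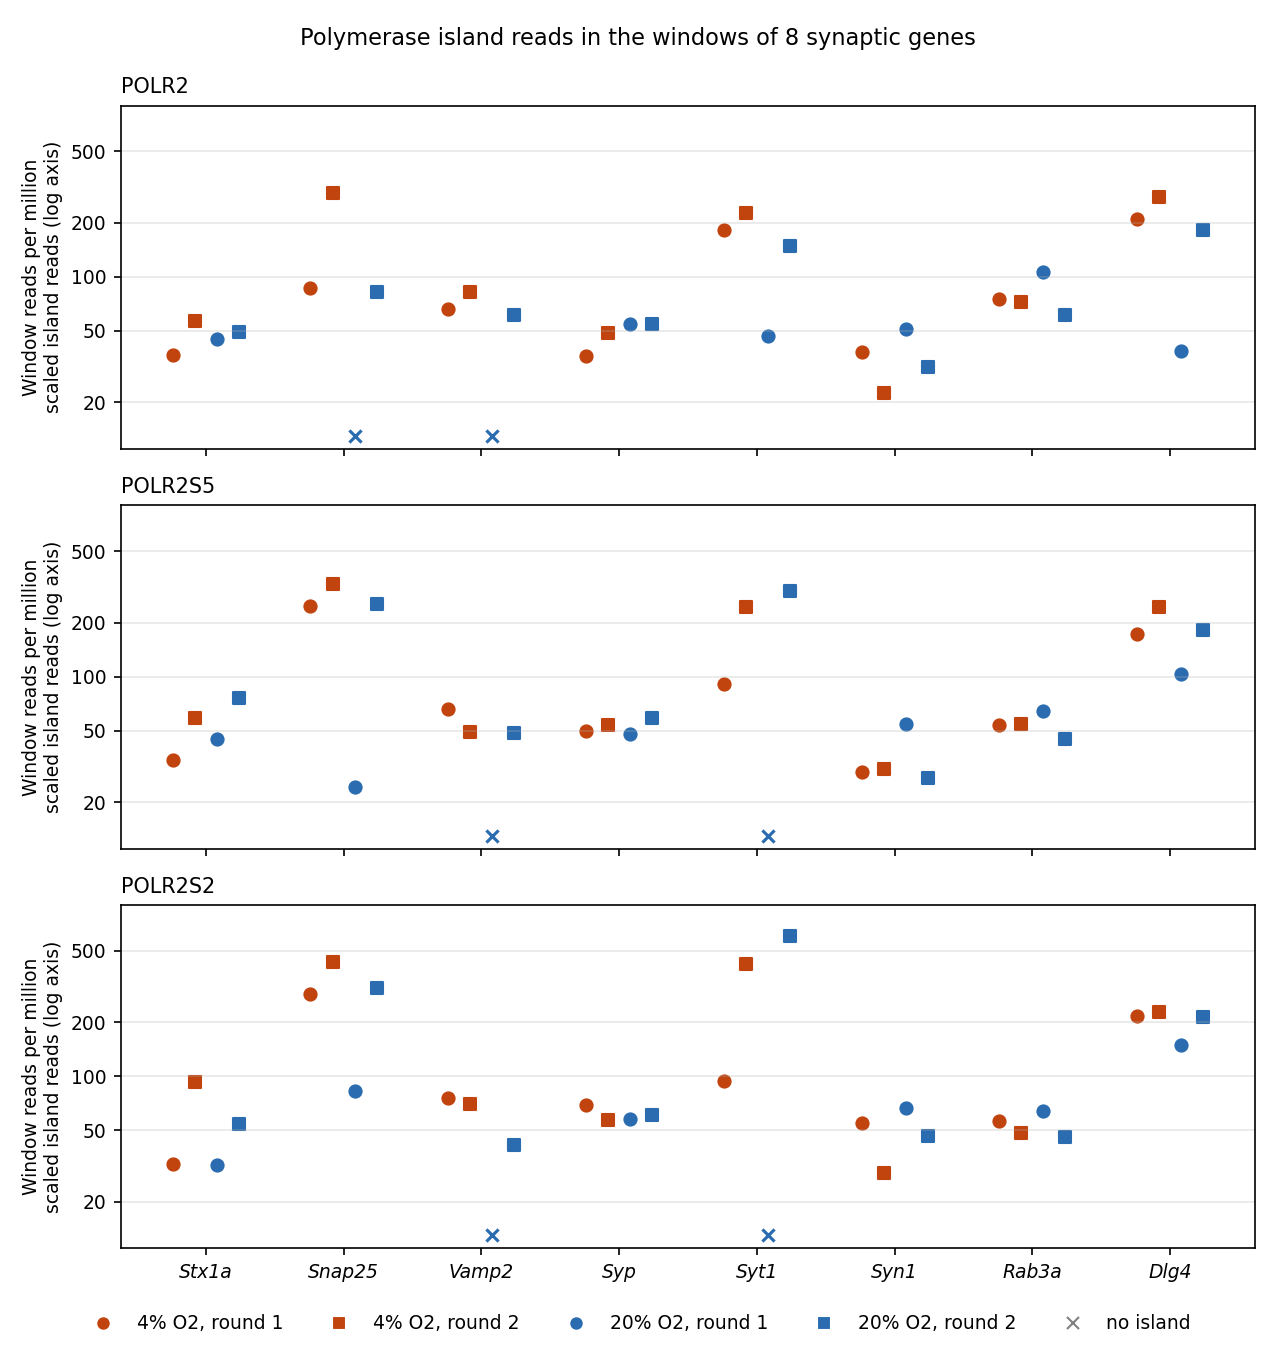
Scaled window reads (CPM of island reads after TMM, log axis) of the 8 genes in the 12 polymerase libraries, with 4% O2 left of 20% O2, circles for round 1, squares for round 2 and crosses for windows without an island. The crosses are all 20% O2 round 1, at Snap25 and Vamp2 for POLR2 and at Vamp2 and Syt1 for POLR2S5 and POLR2S2.

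Stx1a (chr5:135023482-135051100, plus strand) encodes syntaxin 1A, a plasma membrane SNARE. Its window held 204 and 516 POLR2 reads at 4% O2, against 124 and 377 at 20% O2. After scaling, 36.4 and 56.8 at 4% O2 stood against 45.2 and 49.3 at 20% O2, so the groups overlapped, with log2 ratios of -0.31 and 0.20 in the rounds. POLR2S5 gave 34.1 and 58.8 scaled reads at 4% O2, against 44.7 and 76.4 at 20% O2. POLR2S2 gave 32.4 and 92.5 at 4% O2, against 32.0 and 54.4 at 20% O2, where the round 2 library at 4% O2 stood apart from the other 3. That library covered 84.5% of the window with islands, while the others covered 38.6% at 4% O2 and 20.6% and 56.8% at 20% O2. The islands at the 3′ end of Stx1a joined those of Bud23, Dnajc30 and Vps37d in the phosphorylated forms, so that part of the gene was not measured alone. For POLR2, the merged region over the 5′ part was shared with Abhd11 and that at the 3′ end with Bud23. The region over the 5′ part of the gene had a POLR2S5 log2 ratio of 0.15 ± 0.52 and that at the 3′ end, with the neighbours, -0.30 ± 0.32 (SE, edgeR, adjusted p = 0.997 for each). Over the whole window the POLR2S5 log2 ratios were -0.39 and -0.38 in the rounds.

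Snap25 (chr2:136713439-136782428) encodes the SNARE that lends a pair of helices to the fusion complex. Its window held 486 and 2678 POLR2 reads at 4% O2, against no island in round 1 and 625 reads in round 2 at 20% O2. Scaled, the rounds gave 86.9 and 294.6 at 4% O2, against no island and 81.7 at 20% O2, so the round 1 library at 4% O2 stood near 20% O2 round 2 and the round 2 library at 4% O2 stood apart. Coverage along the gene also set that library apart: in round 2, POLR2 islands covered 100% of the window at 4% O2 and 16.6% at 20% O2, and in round 1, 11.5% at 4% O2. In round 2 the phosphorylated forms gave smaller log2 ratios, 0.37 for POLR2S5 and 0.47 for POLR2S2. POLR2S5 held 2672 and 3871 reads at 4% O2, against 153 and 3046 at 20% O2, and covered 98.9% and 100% of the window at 4% O2 and 11.3% and 100% at 20% O2. POLR2S2 held 3044 and 6966 reads at 4% O2, against 438 and 2859 at 20% O2. In both forms the 20% O2 round 1 library was the lowest of the 4, and the groups overlapped after scaling because the 20% O2 round 2 library lay above the 4% O2 round 1 library.

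**Figure D2:**
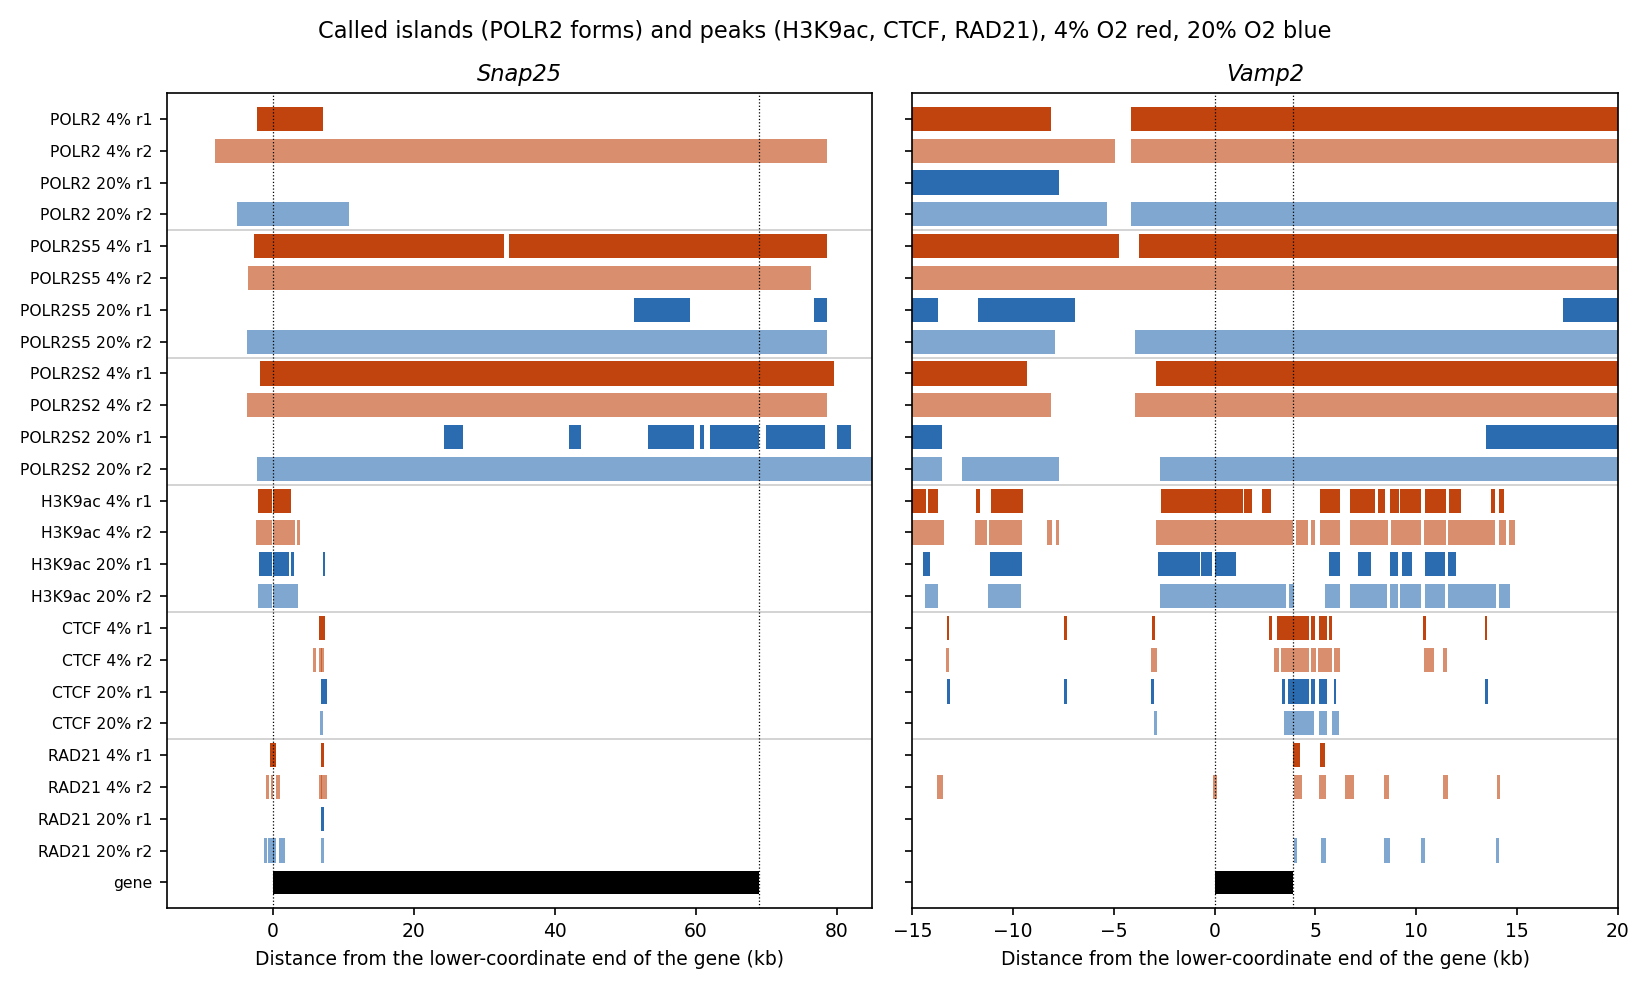
Islands of the 3 polymerase forms and peaks of H3K9ac, CTCF and RAD21 at Snap25 and Vamp2 by distance in kb from the lower-coordinate end of each gene, 4% O2 (red) above 20% O2 (blue) for each antibody, r1 and r2 for the rounds, black bars for the genes. POLR2S5 and POLR2S2 islands span Snap25 from end to end in 3 of 4 libraries each, and 20% O2 round 1 holds separate islands of at most 8.4 kb in their place.

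The longest POLR2S2 island touching the window measured 81.4 and 82.2 kb at 4% O2, against 8.4 and 90.4 kb at 20% O2, where round 1 had 6 separate islands. For POLR2S5 the longest measured 45 and 79.8 kb at 4% O2, against 8.0 and 82.2 kb at 20% O2. Over the merged region chr2:136709801-136792000, which touches no other protein-coding gene, the fitted POLR2S5 log2 ratio was 1.02 ± 0.87 (SE) and did not pass edgeR's quasi-likelihood test (adjusted p = 0.997). With 20% O2 round 2 left out, the same region passed at 3.35 (adjusted p = 0.0182), a comparison of both 4% O2 libraries with 20% O2 round 1 alone. With 20% O2 round 1 left out instead, the ratio was 0.16 (adjusted p = 1.0). The POLR2S2 ratio was 0.67 ± 0.51 (adjusted p = 0.813).

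Vamp2 (chr11:69088528-69092381) encodes synaptobrevin 2, the vesicle SNARE. Its short gene lay wholly inside islands in every library that had one: 371 and 744 POLR2 reads at 4% O2, against no island and 466 reads at 20% O2. POLR2S5 held 713 and 578 reads at 4% O2, against no island and 581 at 20% O2. POLR2S2 held 797 and 1132 reads at 4% O2, against no island and 381 at 20% O2. Scaled, POLR2S2 stood at 75.8 and 70.2 at 4% O2, above 41.6 in 20% O2 round 2, a log2 ratio of 0.76 in that round, while POLR2S5 gave 0.01. The islands were 25.6 to 92.6 kb long and ran on into Per1, and in some libraries Hes7 and Aloxe3, so the window values share their reads. The merged POLR2S2 region chr11:69084601-69112400, over Vamp2 and Per1, had the largest fitted ratio of the tested regions at the 8 genes, 1.56 ± 0.56 (edgeR, adjusted p = 0.809), with 3649 and 5300 reads at 4% O2, against 278 and 1668 at 20% O2. In 20% O2 round 1 its reads came from an island that did not reach Vamp2. With the round as a block the ratio was 1.78 ± 0.41 (adjusted p = 0.162).

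Syp (chrX:7638580-7653256, plus strand) encodes synaptophysin, a membrane protein of the vesicle. Its window held 203 and 440 POLR2 reads at 4% O2, against 149 and 417 at 20% O2. Scaled, these were 36.3 and 48.4 at 4% O2, both below 54.3 and 54.5 at 20% O2, with log2 ratios of -0.58 and -0.17. In round 2 the lower value at 4% O2 rested on an island at the 3′ end. That island held 94 reads in 20% O2 round 2 and had no counterpart in the other libraries. The POLR2 region called in all 4 libraries, over the 5′ part of Syp, had log2 ratios of -0.544 and 0.285 in the rounds and a fitted ratio of -0.11 ± 0.33 (SE, edgeR, adjusted p = 0.993). In the phosphorylated forms the libraries of both O2 levels lay close together: POLR2S5 had 49.98 and 53.7 scaled reads at 4% O2 and 47.9 and 58.8 at 20% O2. POLR2S2 had 68.9 and 57.3 at 4% O2 and 57.9 and 61.1 at 20% O2. Syp had the smallest fitted POLR2S2 ratio in size of the tested regions, 0.01 ± 0.41 (edgeR, adjusted p = 0.994), and its islands touched no other protein-coding gene.

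Syt1 (chr10:108497650-109010980, minus strand) encodes the calcium sensor and is by far the longest of the 8 genes at 513.3 kb. Islands covered a small part of it, at most 8.81% of the window for POLR2 and 38.7% for POLR2S2. POLR2 gave 1023 and 2065 reads at 4% O2, against 129 and 1141 at 20% O2, or 182.7 and 227.1 scaled reads at 4% O2, both above 46.9 and 149.2 at 20% O2. The POLR2 log2 ratios were 1.96 and 0.61 in the rounds, and over the window 1.06 ± 0.60 (SE, edgeR, adjusted p = 0.980). The POLR2 region called in all 4 libraries, over the 5′ end of Syt1, had log2 ratios of 1.13 and 0.13 in the rounds. Its fitted ratio was 0.53 ± 0.41 (SE, edgeR, adjusted p = 0.993). Some window reads came from regions called in 1 library alone: 149 in 4% O2 round 1, 574 in 4% O2 round 2 and 127 in 20% O2 round 2. In the phosphorylated forms 20% O2 round 1 had no island, and round 2 ran the other way: POLR2S5 gave 90.5 and 243.1 scaled reads at 4% O2, against 301.6 in round 2 at 20% O2. POLR2S2 gave 94.8 and 420.9 at 4% O2, against 602.7 in round 2 at 20% O2. The longest POLR2S2 island at Syt1 measured 29.8 and 125.6 kb at 4% O2 and 112.8 kb in 20% O2 round 2. No POLR2S5 or POLR2S2 region at Syt1 was called in all 4 libraries, so none entered the test there. With no filter, the region with the largest overlap had ratios of 0.64 ± 2.09 for POLR2S5 and 0.15 ± 2.39 for POLR2S2 (SE, edgeR, adjusted p = 1.0 for each), and -0.36 and -0.905 (adjusted p = 1.0 and 0.970) without 20% O2 round 1.

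Syn1 (chrX:20860511-20920918, minus strand) encodes synapsin I, and its window also overlaps Araf and Timp1. The window held 214 and 206 POLR2 reads at 4% O2, against 140 and 239 at 20% O2, or 38.3 and 22.6 scaled reads at 4% O2 and 50.98 and 31.3 at 20% O2. The log2 ratios were -0.42 and -0.47 in the rounds for POLR2, -0.89 and 0.15 for POLR2S5, and -0.26 and -0.70 for POLR2S2. Separate islands lay at the 2 ends of Syn1, and their ratios had opposite signs in reads, though not in POLR2S5 reads per kb of island, where they were -0.50 at the promoter and -0.45 at the 3′ end. The POLR2S5 region over the promoter, chrX:20915001-20922400, held 203 and 293 reads at 4% O2, against 70 and 168 at 20% O2, a ratio of 0.78 ± 0.41 (edgeR, adjusted p = 0.997). The POLR2S5 region at the 3′ end, chrX:20846801-20866400, shared with Araf, held 551 and 378 reads at 4% O2, against 574 and 614 at 20% O2, a ratio of -0.81 ± 0.47 (edgeR, adjusted p = 0.997). A POLR2S2 region at the promoter was called in both libraries at 4% O2, with 163 and 192 reads, and in neither at 20% O2. With no filter, where a missing island counts as 0 reads, its ratio was 10.16 ± 4.00 (SE, edgeR, adjusted p = 0.836). The share of all regions called in this way was not computed. The sequence printed above lies inside the POLR2S5 promoter region.

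Rab3a (chr8:70754703-70758608, plus strand) encodes the GTPase of vesicle docking. POLR2 gave 75.2 and 72.8 scaled reads at 4% O2, against 106.4 and 61.2 at 20% O2. POLR2S5 gave 53.8 and 54.4 at 4% O2, against 63.9 and 44.7 at 20% O2, and POLR2S2 gave 56.7 and 48.1 at 4% O2, against 64.5 and 45.9 at 20% O2. In each form both 4% O2 values lay between the 2 values at 20% O2. The longest island touching its window in a library measured 12.6 to 62.0 kb, and the islands joined Mpv17l2, Ifi30, Pik3r2 and Mast3 in at least 1 library. The merged POLR2S2 region had a ratio of 0.29 ± 0.23 (edgeR, adjusted p = 0.821).

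Dlg4 (chr11:70017203-70045535, plus strand) encodes PSD-95, the 1 gene of the 8 whose protein is known mainly from the postsynaptic side. Its window held 1169 and 2534 POLR2 reads at 4% O2, against 107 and 1397 at 20% O2. Scaled, these were 208.8 and 278.8 at 4% O2, above 38.8 and 182.8 at 20% O2, with log2 ratios of 2.43 and 0.61. POLR2S5 gave 172.5 and 243.0 at 4% O2, against 103.5 and 182.3 at 20% O2, where the groups overlapped although both rounds were higher at 4% O2, by 0.74 and 0.42. POLR2S2 gave 216.2 and 227.0 at 4% O2, above 149.3 and 213.7 at 20% O2, with log2 ratios of 0.53 and 0.09. Dlg4 was the 1 gene of the 8 whose log2 ratios were above 0 in both rounds in all 3 forms. Snap25, Vamp2 and Syt1 could not meet this, as each lacked an island in 20% O2 round 1 in at least 1 form. Every ratio that Snap25 and Vamp2 did have was above 0. The share of all genes with such ratios in all 3 forms was not computed. Islands covered 93.4% and 97.4% of its window for POLR2 at 4% O2, and 23.5% and 97.4% at 20% O2. Over the window the POLR2 ratio was 1.13 ± 0.72 (SE, edgeR, adjusted p = 0.980). The merged region chr11:69966001-70050400 held 8 neighbouring genes besides, among them Acadvl, Dvl2 and Gabarap, and had a POLR2 ratio of 0.58 ± 0.32 (adjusted p = 0.993).

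**Figure D3:**
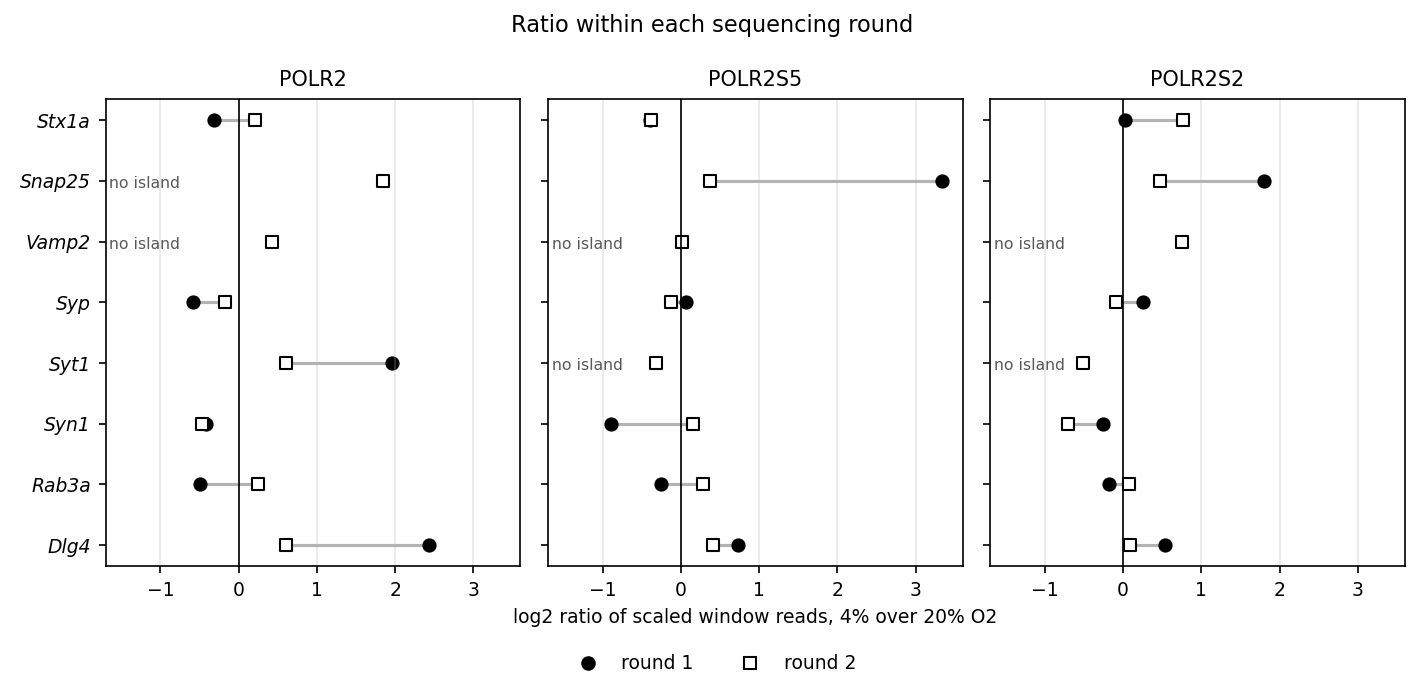
Log2 ratio of scaled window reads, 4% over 20% O2, within round 1 (filled circles) and round 2 (open squares) for the 8 genes (rows) and the 3 polymerase forms (panels); "no island" marks windows without an island in 20% O2 round 1. Dlg4 lies right of 0 in both rounds in all 3 panels, while Rab3a lies on both sides of 0 in each panel.

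Across the 8 genes, 4 POLR2 windows had both 4% O2 libraries above both 20% O2 libraries, beside 16.3% of the 13827 genes with an island, and 1 had both below, beside 11.4%. For POLR2S5 the counts were 1 above, Vamp2, beside 13.9%, and 0 below, beside 13.3%. For POLR2S2 they were 2 above, Vamp2 and Dlg4, beside 20.3%, and 0 below, beside 13.7%. Of the 7 windows above, 4 had no island in 20% O2 round 1, Snap25 for POLR2 and Vamp2 for each form. Without 20% O2 round 1, a comparison added after the values were seen, 5 POLR2 windows lay above, beside 27.3%, and 1 below, beside 35.7%. POLR2S5 then had 3 above and 3 below, beside 27.9% and 34.4%, and POLR2S2 3 above and 1 below, beside 31.7% and 31.5%. Vamp2 and Rab3a lay above in all 3 forms under that comparison, and the share of all genes that do so was not computed. At Rab3a the library left out was the highest of the 4 in each form. For POLR2S5, Vamp2 had 65.7 and 49.05 scaled reads at 4% O2, against 48.6 in 20% O2 round 2. In round 2 alone, the median log2 ratio of the 8 genes was 0.34, 0.08 and 0.08 for POLR2, POLR2S5 and POLR2S2, beside -0.03, -0.02 and 0.03 over all genes with a ratio.

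The test across regions called no region of any of the 8 genes. For POLR2, 6 of the regions at the genes were called in all 4 libraries and entered the test, with none at Snap25 or Vamp2. For POLR2S5 there were 9 and for POLR2S2 7, with none at Syt1. edgeR's quasi-likelihood test with Benjamini-Hochberg adjustment called 0 of 7811, 0 of 9933 and 0 of 5936 regions, a background of 0.0% in each form, with 172, 286 and 349 regions at an unadjusted p under 0.05. Of these, 0, 0 and 1 lay at the 8 genes, the 1 being the POLR2S2 region of Vamp2 and Per1. DESeq2 called 1, 19 and 53 regions, or 0.0128%, 0.191% and 0.893%, and none at the 8 genes. With the sequencing round as a block, edgeR called 1, 3 and 11 regions, or 0.0128%, 0.0302% and 0.185%, again with none at the 8 genes, where the lowest adjusted p was 0.371, 0.342 and 0.162. At an unadjusted p under 0.05 the block gave 1 of 6, 4 of 9 and 2 of 7 regions at the 8 genes, beside 1002 of 7811, 1316 of 9933 and 917 of 5936 in all. As a scale for the O2 levels, the window of P4ha1, a collagen prolyl hydroxylase gene known to respond to hypoxia, held 424.0 scaled POLR2 reads at 4% O2 and 194.9 at 20% O2 in round 2, a log2 ratio of 1.12.

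The levels of the 8 genes were set in order by scaled reads per kb of window, averaged over the 3 libraries of a form in which every gene had an island, both of 4% O2 and 20% O2 round 2. This choice of libraries was made after the values were seen. For POLR2, Vamp2 at 11.9 ± 1.85 (SD, n = 3) and Rab3a at 11.8 ± 1.27 stood highest and overlapped, then came Dlg4 at 7.37 ± 1.64. Syp at 2.78 ± 0.56, Snap25 at 2.17 ± 1.71 and Stx1a at 1.60 ± 0.35 followed, with overlap between neighbours among these 3. Syn1 at 0.49 ± 0.13 and Syt1 at 0.36 ± 0.08 stood lowest and overlapped. The libraries did not overlap between Rab3a and Dlg4, Dlg4 and Syp, or Stx1a and Syn1. Vamp2, Rab3a and Dlg4 had the highest means in this order in the phosphorylated forms too. These were 9.30 ± 1.67, 8.63 ± 0.92 and 6.57 ± 1.26 for POLR2S5 and 10.7 ± 3.14, 8.51 ± 0.97 and 7.22 ± 0.23 for POLR2S2. Vamp2 and Rab3a overlapped in both of these forms, and Rab3a and Dlg4 overlapped for POLR2S5. In 20% O2 round 1 Vamp2 had no island in any form. Over all 4 libraries, with a missing island taken as 0, Rab3a stood first and Vamp2 next in each form. Vamp2 stood at the 97.0th and 99.9th percentile of genes with a POLR2 island at 4% O2 and the 97.9th in 20% O2 round 2. Rab3a stood at the 98.4th and 99.5th at 4% O2 and the 97.9th and 97.8th at 20% O2. Both are 3.9 kb genes inside islands that reach across their neighbours, and both windows were wholly covered wherever an island was called, apart from Rab3a in 20% O2 round 1, where 86.5% was covered for POLR2.

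H3K9ac marked all 8 genes near their starts, with a region called in all 4 libraries centred within 2 kb of the start (for Snap25 and Vamp2, of the lower-coordinate end). The highest score per library was at Vamp2 in round 2, 111.3 at 4% O2 and 122.0 at 20% O2, at the 99.6th and 99.5th percentile of peaks in those lists. In round 1 it was at Syt1, 43.0 at 4% O2 and 75.2 at 20% O2, against 33.5 and 49.4 at Vamp2. Dlg4 reached 84.8 at 4% O2 and 97.4 at 20% O2 in round 2, in regions centred 13.1 and 11.06 kb from its start. Its region at the start scored 68.9 and 86.3 in those libraries. Syp and Syn1 had the lowest at 4% O2 and in 20% O2 round 2, 13.4 and 22.4 at 4% O2 against 15.4 and 44.3 at 20% O2 for Syp, and 13.4 and 20.9 against 23.3 and 19.1 for Syn1. Syt1 carried the most peaks, 18 and 21 at 4% O2 and 18 and 15 at 20% O2, of which 13 regions were called in all 4 libraries, at its start and as far as 179.0 kb inside the gene. Scores differ in scale between libraries, so each region called in all 4 libraries was ranked within its library as a percentile.

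Over the 31 such regions at the 8 genes, the median rank difference, 4% minus 20% O2, was 0.27 percentile points, and 2.12 and 1.06 in the rounds. Both 4% O2 libraries ranked above both 20% O2 libraries at 5 of the 31, beside 13.9% of 39931 regions, and below at 1, beside 13.1%. The 5 lay at Stx1a, Snap25, Syt1, Rab3a and Dlg4. The clearest was inside Dlg4, 8.77 kb from its start at chr11:70025202-70026735, with ranks of 63.7 and 91.2 at 4% O2, against 30.9 and 37.7 at 20% O2. At the 3′ end of Rab3a, chr8:70758177-70760918 ranked 63.3 and 61.1 at 4% O2, against 7.52 and 44.1 at 20% O2. This region was centred 4.84 kb from the start of the 3.9 kb gene, so most of it lay past Rab3a. The window of Rab3a also overlaps Mpv17l2. At Snap25, the region on the outer side of the lower-coordinate end ranked 92.3 and 79.5 at 4% O2, against 70.9 and 76.5 at 20% O2. The 1 below lay at Syp, chrX:7638048-7638526, with 17.0 and 13.1 at 4% O2, against 23.7 and 21.9 at 20% O2. With 2 libraries against 2, no exact permutation test can pass 0.05, so none was run on these ranks.

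**Figure D4:**
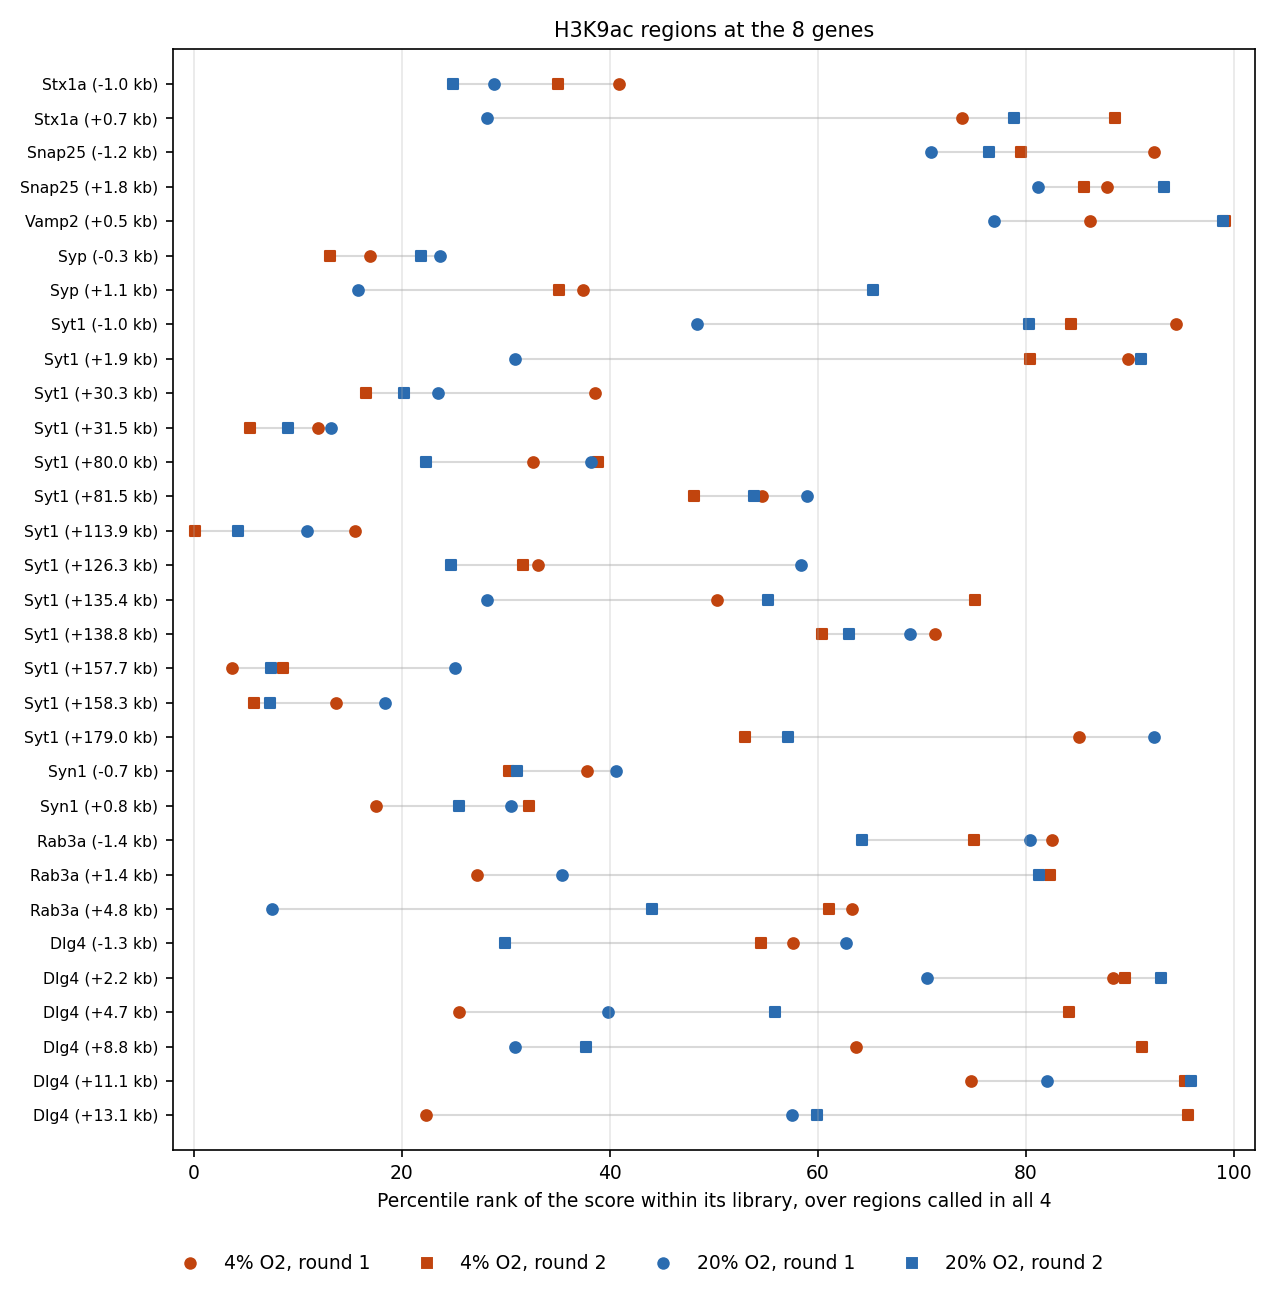
Percentile rank of the H3K9ac score (x axis) of the 31 regions called in all 4 libraries at the 8 genes, labelled with the gene and the distance of the region's centre from the gene start (lower-coordinate end for Snap25 and Vamp2), red for 4% O2, blue for 20% O2, circles for round 1, squares for round 2. The region of Dlg4 at 8.8 kb has both 4% O2 points right of both 20% O2 points, and most other rows overlap.

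CTCF had a peak in all 4 libraries at 7 of the 8 genes, and RAD21 at 4, beside 34.6% of all genes. Syn1 was the exception for CTCF, with 3 peaks in each round 1 library, the highest scoring 20.2 at 4% O2 and 13.3 at 20% O2, and none in round 2, and it had no RAD21 peak in any library. The other 7 each held a CTCF region shared by all 4 libraries, 10 regions in all. A shared CTCF region was present at 51.2% of all genes and at 73.7% of the genes with an H3K9ac peak in all 4 libraries, which all 8 are. A shared CTCF region together with RAD21 was present at 35.2% of all genes, 51.1% of those H3K9ac genes and 4 of the 8.

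At Snap25 the shared CTCF region, chr2:136720219-136720813, lay 7.08 kb inside the gene, with scores of 394.7 and 47.8 at 4% O2, against 358.9 and 106.8 at 20% O2. RAD21 was called at the same place in all 4 libraries, with scores of 22.9 and 27.0 at 4% O2, against 8.2 and 92.6 at 20% O2. At Vamp2 the CTCF region chr11:69091738-69093554 covered the upper-coordinate end of the gene, with scores of 485.1 and 91.4 at 4% O2, against 332.3 and 110.3 at 20% O2. It ranked at 81.5 and 80.4 at 4% O2, above 71.6 and 68.5 at 20% O2, and was the 1 shared CTCF region of the 10 that ranked above, beside 10.2% of 40192 regions. RAD21 was called there in 3 libraries, all but 20% O2 round 1. At Rab3a, CTCF ranked 15.5 and 15.3 percentile points higher at 4% O2 in the rounds, 52.7 and 69.9 at 4% O2 and 37.2 and 54.6 at 20% O2, and the groups overlapped.

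Syt1 held 4 of the 10 CTCF regions, all inside the gene and none at its start. Of these, 2 ranked below in both 4% O2 libraries, beside 9.89% of regions. The region chr10:108733773-108734753, 276.7 kb into the gene, ranked at 45.1 and 59.2 at 4% O2, against 63.1 and 62.9 at 20% O2. RAD21 at the same place ranked at 39.4 and 35.2 at 4% O2, against 80.6 and 57.7 at 20% O2, with scores of 48.4 and 32.7 at 4% O2, against 97.0 and 95.2 at 20% O2. CTCF and RAD21 both ranked below at this site. At the other, chr10:108524420-108525289, 486.1 kb into the gene, CTCF ranked at 44.4 and 42.1 at 4% O2, below 55.2 and 46.5 at 20% O2, while RAD21 ranked at 27.0 and 18.9 at 4% O2, above 18.6 and 17.0 at 20% O2. The called sites of Syt1 thus differed in the direction of RAD21. Of the 7 RAD21 regions shared by all 4 libraries at the 8 genes, it was the 1 below, beside 17.8% of 21298 regions, and 2 ranked above, at Syp and at that other site of Syt1, beside 16.4%. RAD21 also had a shared region at the start of Syt1, with scores of 11.6 and 41.0 at 4% O2, against 3.9 and 43.0 at 20% O2, and no shared CTCF region there.

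**Figure D5:**
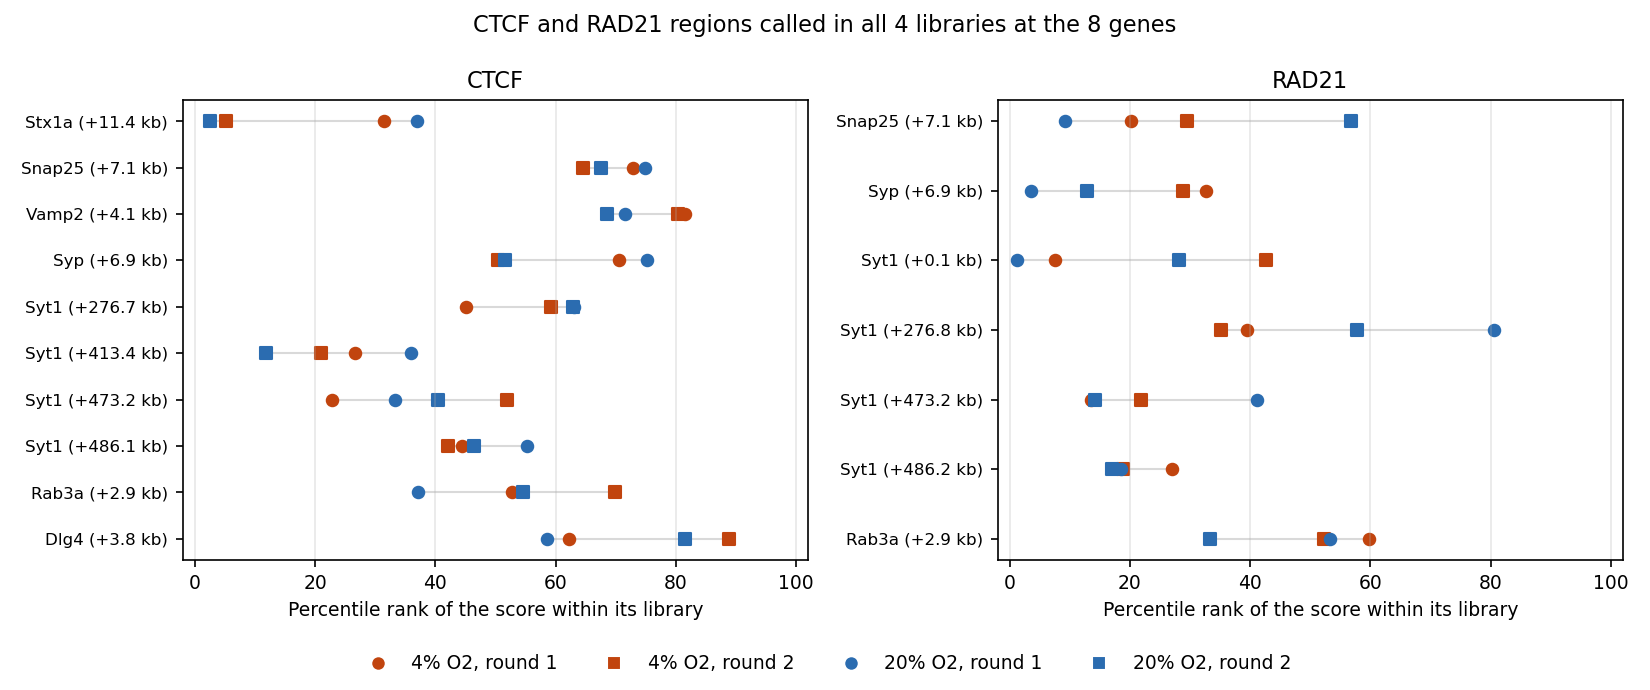
Percentile rank within its library (x axis) of the 10 CTCF and 7 RAD21 regions called in all 4 libraries at the 8 genes, labelled and coloured as in the plot of H3K9ac ranks. At Vamp2 both 4% O2 points of CTCF lie right of both 20% O2 points, and at Syt1, 276.8 kb from the start, both 4% O2 points of RAD21 lie left of them.

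Other genes of the pathway were taken from lists by role. Of 21 SNARE paralogs and fusion regulators, 16 had POLR2 islands in all 4 libraries, of which 4 were higher at 4% O2 in both rounds, beside 26.2% of such genes, and 3 lower, beside 30.3%. Of 29 vesicle membrane and cargo genes, 16, 19 and 18 had islands in all 4 libraries for POLR2, POLR2S5 and POLR2S2. Among these, 10, 11 and 10 were higher in both rounds, beside 26.2%, 26.8% and 30.6%, and 2, 3 and 2 lower, beside 30.3%, 29.6% and 31.1%. Their median window ratio was 0.43, 0.35 and 0.44, beside -0.04, -0.03 and -0.02 over all genes tested, and over their merged regions 0.34, 0.21 and 0.14, beside -0.014, -0.021 and -0.004 over all regions. Of the vesicle endocytosis genes with islands in all 4 libraries, 7 of 14, 9 of 15 and 8 of 15 were higher in both rounds and 0, 0 and 1 lower. The Rab3 cycle and active zone list had 5 of 11, 6 of 14 and 4 of 10 higher and 2, 4 and 3 lower, and the postsynaptic list 7 of 13, 6 of 17 and 8 of 14 higher and 0, 3 and 3 lower. No gene of these lists passed the test in any form, with or without the round as a block.

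Among the named examples, Dnajc5, the cysteine string protein that chaperones SNAP-25, had a POLR2 window ratio of 1.27 ± 0.41 (SE) with 1009 and 1938 reads at 4% O2, against 236 and 591 at 20% O2. Nlgn2, an adhesion protein of inhibitory synapses, had 1.35 ± 0.43 for POLR2. Slc18a2, the vesicular monoamine transporter, had -0.85 ± 0.40 for POLR2S5, with 1069 and 1048 reads at 4% O2, against 1378 and 1423 at 20% O2. Bsn, the active zone scaffold bassoon, had -1.10 ± 0.46 for POLR2S2, and Dlg3, a paralog of Dlg4, -0.85 ± 0.39 for POLR2S5 against 0.54 ± 0.41 for Dlg4. The adjusted p of these ratios lay at 0.929, 0.980 or 0.998 by edgeR, according to the form.

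Likeness to the mean profile of the 8 genes was read as Pearson r of window reads centred within each form. Over the 12 polymerase libraries the highest r among 7280 genes with islands in all 12 were those of Myo1d, Syt7, Arid5b, Tnk2 and Rasa4, between 0.967 and 0.985, but windows without an island entered the mean as 0 reads in 20% O2 round 1. Over the 9 libraries left without 20% O2 round 1, a comparison added after the values were seen, the highest were Pitpnb, Supv3l1, Tnk2, Slc12a9 and Pi4ka, between 0.971 and 0.980, so 1 of the 5 was shared. Myo1d then had an r of 0.508 and Arid5b of 0.487. The 8 genes did not share 1 profile over the 9 libraries. Here r with their mean, which includes the gene itself, was 0.819 for Snap25, 0.775 for Dlg4, 0.756 for Stx1a and 0.698 for Syt1. It was -0.667 for Syn1, -0.140 for Syp, -0.114 for Rab3a and -0.067 for Vamp2. The libraries share 2 rounds and differ in depth.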

How the data were processed

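Per the submitters' processing notes, BWA, Picard, SICER and MACS2 were used with build mm10; their versions and parameters were not given in the sources used here. Islands and peaks were called per library, per the file headers. The deposited SICER lists hold an unscaled read count for each island, and the deposited MACS2 lists a score read from its values as −log10 of a q-value. Library depth is not known from them, and island reads are not depth. The replicate 2 lists, each deposited in 2 forms, were equal in 12 of 12 cases and were counted once.

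Gene coordinates came from the RefSeq table of GRCm38.p6. Islands overlapping by at least 1 bp across the 4 libraries of a form were merged, and reads of regions called in all 4 were compared with edgeR 4.0.16 (TMM, quasi-likelihood, two-sided, R 4.3.3), with Benjamini-Hochberg adjustment over all regions and a threshold of 0.05. DESeq2 1.42.0, gene windows, reads per kb of island, no filter, the round as a block and leaving out each library were alternatives. The fits were tested on simulated data. Replicate numbers mark sequencing rounds on different flow cells, per the file headers, each holding both O2 levels. Same-numbered libraries deviated together from their group means, with correlations of 0.531, 0.551 and 0.396 for POLR2, POLR2S5 and POLR2S2 over regions, so the rounds pair the libraries.

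The 8 genes, the pathway lists and the marker lists were chosen with earlier results of these data known. Apart from the 8 genes, genes are named from each list and form as the 2 largest and 2 smallest ratios of 1 sign in both rounds, from which examples were taken; P4ha1 serves as a scale.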

Additional observations from a re-analysis of the deposited data

How the results depend on the processing

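No region of the 8 genes was called under any alternative but 1, POLR2S5 without 20% O2 replicate 2, where 1 region, Snap25, passed. Over all regions, calls numbered 0 for each form in the fit as reported. They numbered 1, 3 and 11 for POLR2, POLR2S5 and POLR2S2 with the replicate block, and 1, 19 and 53 with DESeq2. Leaving out 1 library gave 0 to 168 calls for POLR2, 3 to 56 for POLR2S5, both highest without 20% O2 replicate 2, and 0 each time for POLR2S2. The block changed no call at the 8 genes.

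Of 188 values of member regions under alternatives, 164 kept their direction and side of the threshold, 23 reversed and 1 passed. Reads per kb of island, which moves the median of all regions to -0.47, -0.31 and -0.37, reversed 9: Stx1a (-0.87), Syn1 (-0.65), Rab3a (-0.21) and Dlg4 (-0.035) for POLR2, Syp (0.062) and Syn1 (-0.50) for POLR2S5, and Stx1a (-0.36), Syp (-0.092) and Rab3a (-0.056) for POLR2S2. Gene windows reversed Stx1a (-0.019), Syn1 (-0.43) and Rab3a (-0.18) for POLR2, Syn1 (-0.45) and Rab3a (-0.006) for POLR2S5, and Rab3a (-0.074) for POLR2S2. DESeq2 and its size factors in edgeR each put Syp at -0.006 for POLR2S2. Leaving out 1 library gave ranges across 0 for Stx1a (-0.045 to 0.12), Syp (-0.37 to 0.12) and Syn1 (-0.029 to 0.34) for POLR2 and Syp (-0.17 to 0.21) for POLR2S2. The cause was not tested.

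With the upper part of scores only, RAD21 was called in all 4 libraries at 2 of the 8 genes in place of 4. The median H3K9ac rank difference of 0.27 became 1.41 with summed scores, 0.057 with 0 kb flanks, 3.99 with 5 kb flanks, 2.12 and 1.06 within rounds, and 2.30 to 5.80 without 1 library. Without 20% O2 replicate 1, windows at 4% O2 lay above at 3 genes and below at 3 for POLR2S5, and below at 1 for POLR2S2. With 2 libraries a group, and with 20% O2 round 1 lowest in island reads in each form, the absence of a call does not show equal levels.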
